A study of Mus musculus with 11 samples.

Results

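The complement genes C3, C4b, Cfb, Cfi, C1qa, C1qb, C1qc, Serping1 and Cd59a were examined in bulk RNA sequencing of retinal pigment epithelium (RPE) and choroid from C57BL/6J mice. The 9 genes were chosen by name as components and regulators of complement, with earlier results of these data known. All 9 were found among the 14602 genes of the count table. The laser treated group held 5 libraries from wild type mice that received the 2RT nanosecond laser in one eye at 9 months of age and were collected at 12 months, 3 months after treatment. The naïve control group held 6 libraries from untreated mice of the same strain, collected at the same age. RPE and choroid were collected together. Each value therefore averages the pigment epithelium with the vessels, fibroblasts, melanocytes, nerves and immune cells of the choroid. Only separate spots around the optic nerve head of each treated eye had met the laser. In such bulk samples, fewer cells of a type and less RNA per cell cannot be told apart. Sex was not given in the labels, nor was it said whether each library came from 1 animal, so the p-values below measure the spread between these libraries.

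Complement is a cascade of plasma and tissue proteins that tags surfaces for removal and can puncture membranes. In the classical pathway, the recognition molecule C1q, built from chains encoded by C1qa, C1qb and C1qc, activates proteases that cut C4 and C2, and the complex formed from them cuts C3, the protein on which the routes into the cascade converge. In the alternative pathway, factor B (Cfb) joins deposited C3b to form a further C3-cutting enzyme. The C1 inhibitor (Serping1) blocks the first proteases, factor I (Cfi) cuts C3b and C4b with the help of cofactors, and CD59 (Cd59a) stops assembly of the membrane attack complex. At the back of the eye the pathway is known for its link to age-related macular degeneration.

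Total counts were 25700881 to 36766020 in the control libraries and 32094560 to 38755994 in the laser treated libraries. No gene of the 14602 tested passed an adjusted p of 0.05 in the quasi-likelihood test of edgeR (Benjamini-Hochberg), 2325 had an unadjusted p under 0.05, and DESeq2 called 502 at an adjusted p under 0.05. In data simulated with 200 genes changed 4-fold, DESeq2 found 82% of the changed genes at that adjusted threshold and edgeR 72%. Of the DESeq2 calls 20.8% were false, against 4.6% in edgeR. The simulated spread of each gene was the one edgeR had estimated, and the libraries differed by group and depth alone. It therefore does not show how many of the 502 calls were false. RPE markers summed to 75800 to 130000 CPM (counts scaled to library sizes normalised by TMM) across all libraries, with Best1 alone near 0 (1.2 ± 1.25 CPM in 6 controls), and neural retina markers to 4430 to 21700 CPM. The Y-linked genes Ddx3y, Uty, Kdm5d and Eif2s3y summed to 145 to 246 CPM in naïve control libraries 4 and 5 and laser treated libraries 1, 4 and 5. They summed to at most 0.0646 CPM in the other 4 control libraries and to 0 CPM in laser treated library 3. Laser treated library 2 carried signal of both kinds, with 8.29 CPM of the Y-linked genes and 44.1 CPM of the X-inactivation transcript Xist. Y-linked expression was thus unevenly spread over the groups, as 2 of 6 control libraries and 3 of 5 laser treated libraries had it at 145 CPM or more. The first line of the transcript files also labels 3 control and 2 laser treated libraries R1 and 3 of each group R2, and the sources used here do not say what these labels mean.

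Which complement genes differed between laser treated and naïve control RPE/choroid 3 months after treatment was asked first. C3, C4b and Serping1 were higher after laser at an unadjusted p under 0.05, Cfb was higher in 4 of 5 libraries than the control median without reaching that level, and the 3 C1q chains lay at near equal mean levels in both groups or somewhat lower. No member passed the adjusted threshold. Of the 9 members, 5 had a positive and 4 a negative log2 fold change, where 48.5% of all genes had a positive one. In edgeR 3 members had an unadjusted p under 0.05, all of them higher after laser, where 15.9% of all genes tested had one, 8.24% with a higher and 7.68% with a lower value. The median log2 fold change was 0.01 over the members and -0.019 over all genes. The adjusted p in edgeR ran from 0.191 for C4b to 0.992 for C1qb, with 0.0% of all genes called, and for no member did the groups separate completely, which 2.26% of all genes did.

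**Figure D1:**
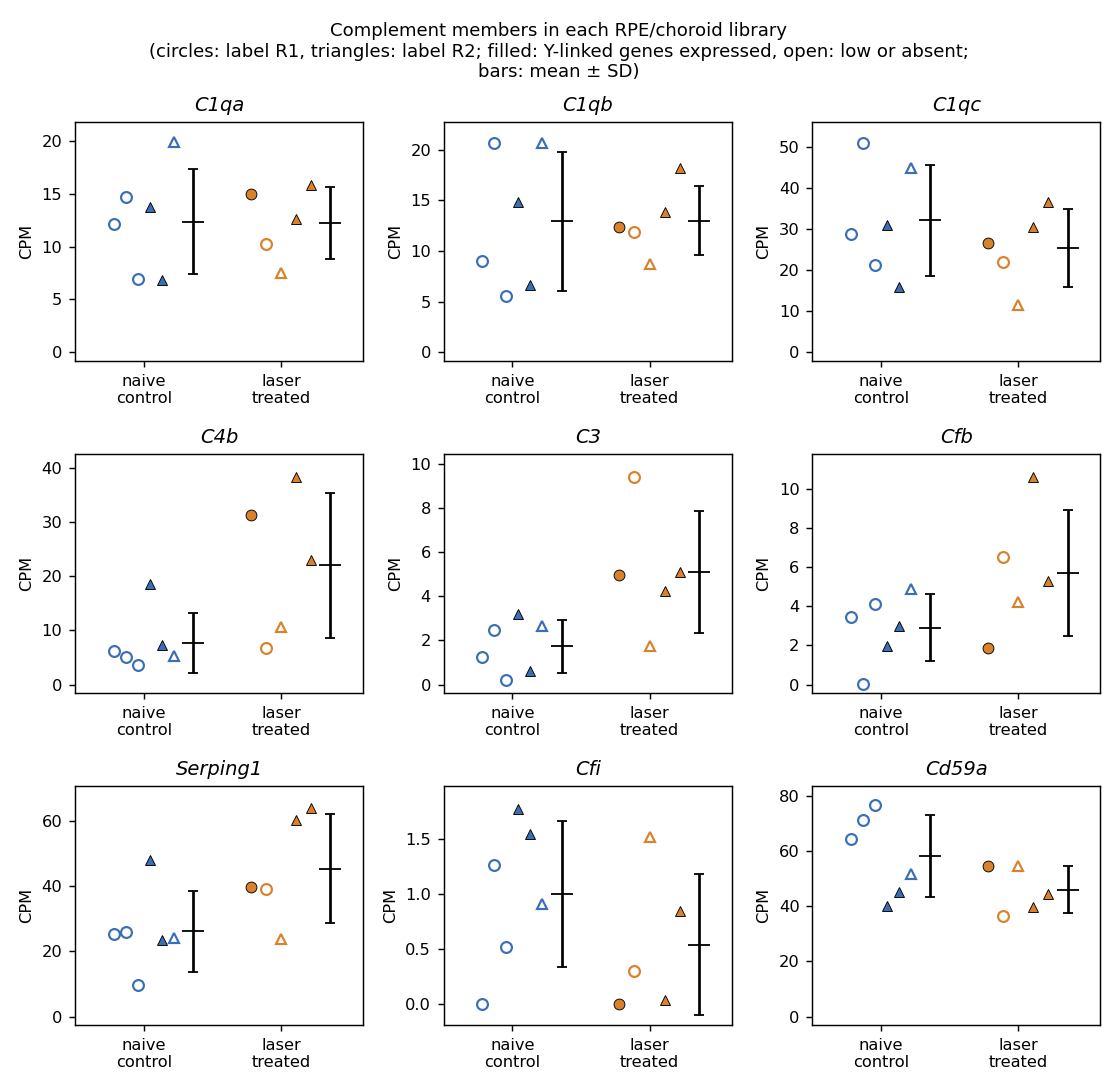
CPM of each member (y axis, linear, 1 panel per gene) in 6 naïve control (blue) and 5 laser treated (orange) libraries, with mean and SD beside the points. Circles and triangles mark the labels R1 and R2, and filled symbols mark libraries with Y-linked expression. For C4b, C3 and Serping1 the laser treated points lie mostly above the control points, whereas the C1q panels overlap throughout, and the groups overlap in every panel.

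The C1q chains are made mainly by macrophages and microglia in most tissues. C1qa, encoded at chr4:136895917-136898803 on the minus strand of GRCm38, had 6.86, 12.9 and 19.9 CPM as the lowest, median and highest control value, and 15.0, 10.2, 7.48, 12.6 and 15.8 CPM in laser treated libraries 1 to 5. All laser treated values lay inside the control range. The log2 fold change was -0.02 (SE 0.31, 95% interval -0.69 to 0.66, adjusted p in edgeR = 0.987).

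C1qb (chr4:136880129-136886187, minus strand) had 5.56, 11.9 and 20.7 CPM in the control group as lowest, median and highest, and 12.4, 11.9, 8.73, 13.8 and 18.2 CPM after laser. Again the laser treated libraries sat within the spread of the controls. Its log2 fold change was 0.01 (SE 0.36, 95% interval -0.77 to 0.79, adjusted p in edgeR = 0.992).

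C1qc (chr4:136889804-136893065, minus strand) was the most abundant chain by counts, with 16, 29.8 and 50.9 CPM in the controls and 26.5, 22, 11.4, 30.4 and 36.6 CPM after laser. Laser treated library 3 held the lowest value of all 11 libraries and naïve control library 2 the highest. The log2 fold change was -0.34 (SE 0.33, 95% interval -1.04 to 0.37, adjusted p in edgeR = 0.690). As folds, the intervals ran from 0.619 to 1.58 for C1qa, from 0.587 to 1.73 for C1qb and from 0.486 to 1.29 for C1qc, and a p above the threshold does not show that the groups were equal.

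The 3 genes sit side by side on chromosome 4 in the order C1qb, C1qc, C1qa, with 3616 and 2851 bases between them, and their levels moved together from library to library. Over 11 libraries the Pearson r of log2 CPM was 0.91 for C1qa with C1qb (permutation p = 0.00018, adjusted over 36 member pairs 0.00648), and Spearman's rho was 0.91 (permutation p = 0.00033, adjusted 0.00594). For C1qa with C1qc, r was 0.86 (permutation p = 0.00046, adjusted 0.00828) and rho 0.84 (permutation p = 0.00215, adjusted 0.0205). C1qb and C1qc gave r = 0.80 (permutation p = 0.00285, adjusted 0.0205) and rho = 0.93 (permutation p = 0.00015, adjusted 0.0054). These relations held without the 2 libraries farthest from the median of the first gene, at r = 0.81, 0.89 and 0.85, and with the group means removed, at 0.91, 0.91 and 0.88. The libraries share their depth, normalisation and base composition across genes.

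The ratio of C1qa to C1qb counts stayed within -0.49 to 0.42 on the log2 scale (SD 0.27, n = 11). C1qc varied more against its neighbours, with a log2 ratio to C1qa of 0.61 to 1.79 and group means of 1.37 in the controls and 1.00 after laser. The difference in this ratio was not tested.

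The stretches upstream of the neighbouring genes C1qb and C1qc are shown because their RNA levels moved together, and that of C3 because it had the largest fold change of the members. They are the 250 bases before the RefSeq start site in GRCm38.p6, at chr4:136886201-136886450, chr4:136892915-136893164 and chr17:57228137-57228386, each read 5′ to 3′ on the minus strand. Capitals mark matches on either strand to a loose form of the NF-kB site (3 G and 2 C with 5 free bases between them), with overlapping matches run together.
C1qb: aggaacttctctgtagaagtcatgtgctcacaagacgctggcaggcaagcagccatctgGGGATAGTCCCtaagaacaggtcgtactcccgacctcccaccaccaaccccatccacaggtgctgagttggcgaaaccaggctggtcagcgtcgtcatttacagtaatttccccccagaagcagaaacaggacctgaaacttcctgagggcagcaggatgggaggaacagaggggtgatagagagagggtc
C1qc: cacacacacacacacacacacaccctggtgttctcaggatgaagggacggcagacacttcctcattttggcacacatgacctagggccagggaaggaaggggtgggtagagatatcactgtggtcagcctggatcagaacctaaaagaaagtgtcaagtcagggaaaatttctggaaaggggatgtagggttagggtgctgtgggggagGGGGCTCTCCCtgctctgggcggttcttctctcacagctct
C3: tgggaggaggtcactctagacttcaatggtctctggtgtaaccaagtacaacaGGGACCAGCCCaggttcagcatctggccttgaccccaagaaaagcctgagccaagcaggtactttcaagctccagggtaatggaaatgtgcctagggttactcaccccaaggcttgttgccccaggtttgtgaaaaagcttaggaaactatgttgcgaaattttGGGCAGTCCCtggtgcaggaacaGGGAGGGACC

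In C1qb the marked stretch began 191 bases before the start site and in C1qc 41 bases before it, and C3 held marked stretches beginning 197, 33 and 10 bases before it. This motif was present in 50.8% of 32851 RefSeq promoters of the same length (250 bases before and 50 after the start), so these matches are a description only. The interferon response element (GAAA repeated with 2 free bases between) was found in Cd59a alone among the 4 members with a promoter sequence, at 187 bases before its start, and in 3.44% of all promoters. TTGCNNNAA (a loose C/EBP site, 9.56% of promoters) was found in none of the windows of these 4 members, and TATAAA (13.6%) was found in C3 alone, 15 bases into the transcript by the RefSeq start. All motifs were searched on both strands. The RefSeq start site of C1qc, at 136892914, lies inside the gene span given above, which ends at 136893065. Part of the C1qc stretch, with its marked site, therefore falls within that span.

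C4b, the substrate that C1 cuts to open the classical pathway, lies at chr17:34728380-34743882 on the minus strand. Its lowest, median and highest control values were 3.59, 5.73 and 18.6 CPM, and laser treated libraries 1 to 5 held 31.3, 6.74, 10.6, 38.4 and 23.1 CPM. Every laser treated library lay above the control median and 3 of 5 lay above every control, while naïve control library 4 stood above the other controls. The controls averaged 7.66 ± 5.49 CPM (SD, n = 6) and the laser treated libraries 22 ± 13.4 CPM (SD, n = 5). The log2 fold change was 1.52 (SE 0.49, 95% interval 0.47 to 2.57, adjusted p in edgeR = 0.191). C4b has a near-identical copy, C4a, which was looked for and not found among the genes tested. How the authors' counting shared reads between them is uncertain.

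The transcript assemblies gave a second view of C4b. Assembled fragments covered a median of 7.9% of its exon bases in the controls (range 4.2% to 16.1%) and 22% after laser (range 15.9% to 27.9%). The fragments summed to 5.91 ± 4.58 TPM (abundance scaled to length and to the library's total) in the 6 controls and 18.4 ± 11.6 TPM in the 5 laser treated libraries. These files come from the same reads and are not a separate experiment.

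C4b was also compared within libraries of like Y-linked expression. In libraries with Y-linked expression, C4b was 7.24 and 18.6 CPM in the controls and 23.1 to 38.4 CPM after laser. In the remaining libraries it was 3.59 to 6.17 CPM in 4 controls and 6.74 and 10.6 CPM in 2 laser treated libraries. The groups thus did not overlap within either set, and the mean log2 CPM was 1.38 and 0.77 higher after laser in them. In the libraries with Y-linked expression C3 and Cfi did not overlap either, with Cfi lower after laser. The remaining libraries included laser treated library 2, which carried signal of both kinds. With 2 to 4 libraries per group such separation carries little weight, and its share over all genes was not computed. With Y-linked expression as a covariate, the log2 fold change of C4b was 0.99 (adjusted p in edgeR = 0.272), and its unadjusted p stayed under 0.05.

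C3 (chr17:57203970-57228136, minus strand), the central component, was scarce in these libraries. Its controls held 0.226, 1.86 and 3.19 CPM as lowest, median and highest, and laser treated libraries 1 to 5 held 4.95, 9.38, 1.74, 4.21 and 5.08 CPM, which rest on 7 to 106 counts in the controls and 61 to 345 after laser. In 4 of 5 laser treated libraries C3 exceeded every control, and laser treated library 3 lay below the control median. The log2 fold change was 1.55 (SE 0.66, 95% interval 0.14 to 2.96, adjusted p in edgeR = 0.271). Assembled fragments of C3 were present in 0 of 6 control and 3 of 5 laser treated libraries. With Y-linked expression as a covariate its log2 fold change was 1.46 (adjusted p in edgeR = 0.409), and without laser treated library 2, the highest, it was 1.21 (adjusted p in edgeR = 0.537). In both of these fits its unadjusted p was above 0.05.

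Cfb (chr17:34856374-34862518, minus strand), the protease component of the alternative pathway, lies 112491 bases from C4b. In the controls it had 0.0406, 3.2 and 4.87 CPM, and after laser 1.85, 6.55, 4.22, 10.6 and 5.32 CPM. Laser treated libraries 2, 4 and 5 lay above every control, but laser treated library 1 lay below most controls, and naïve control library 2 held 1 count against 66 to 161 in the other controls. The log2 fold change of 0.97 (SE 0.72, 95% interval -0.59 to 2.53, adjusted p = 0.569 in edgeR) did not pass the test. Cfb shares 2246 exon bases with the overlapping gene Gm20547, so reads could not be assigned to Cfb alone.

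Among the regulators, Serping1 (chr2:84765387-84775444, minus strand) had the C1 inhibitor RNA at 9.85, 24.7 and 48.1 CPM in the controls and 39.7, 39, 23.8, 60.3 and 63.9 CPM after laser. Laser treated libraries 4 and 5 exceeded every control and laser treated library 3 lay just under the control median. On average Serping1 had 26.2 ± 12.3 CPM (SD, n = 6) in the controls and 45.3 ± 16.6 CPM (SD, n = 5) after laser. This gave a log2 fold change of 0.79 (SE 0.34, 95% interval 0.07 to 1.51, adjusted p in edgeR = 0.272). In the transcript files Serping1 summed to 48.7 ± 22 TPM in the 6 controls and 91.3 ± 35.6 TPM in the 5 laser treated libraries. With Y-linked expression as a covariate the log2 fold change was 0.50 (adjusted p in edgeR = 0.508) and the unadjusted p was above 0.05. With single libraries left out, the unadjusted p stayed under 0.05 in 4 of 11 fits.

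Cfi (chr3:129835884-129875332, plus strand), the protease that inactivates C3b and C4b, was near the limit of detection. The controls held 0, 1.08 and 1.77 CPM as lowest, median and highest, and laser treated libraries 1 to 5 held 0, 0.299, 1.51, 0.0287 and 0.842 CPM, which rest on 0 to 59 counts per library. A count of 0 allows up to 0.0849 CPM (3 counts) in naïve control library 1 and 0.0971 CPM in laser treated library 1, counting error only. The libraries of both groups spread over the whole range, and the log2 fold change of -0.89 had an interval from -3.64 to 1.86 (SE 1.28, adjusted p = 0.811 in edgeR).

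Cd59a (chr2:104095801-104115354, plus strand), the membrane-bound inhibitor of the terminal step, was 40.2, 58.0 and 76.7 CPM in the controls and 54.7, 36.4, 54.6, 39.9 and 44.5 CPM after laser. All 5 laser treated libraries lay below the control median, and libraries 2 and 4 of them lay below every control. The log2 fold change was -0.34 (SE 0.19, 95% interval -0.75 to 0.07, adjusted p = 0.418 in edgeR). The lower mean was found in the libraries labelled R1 (mean difference -0.66 in log2 CPM, 3 controls at 64.4 to 76.7 CPM) and not in those labelled R2 (0.01). Its paralogue Cd59b may share reads with it.

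**Figure D2:**
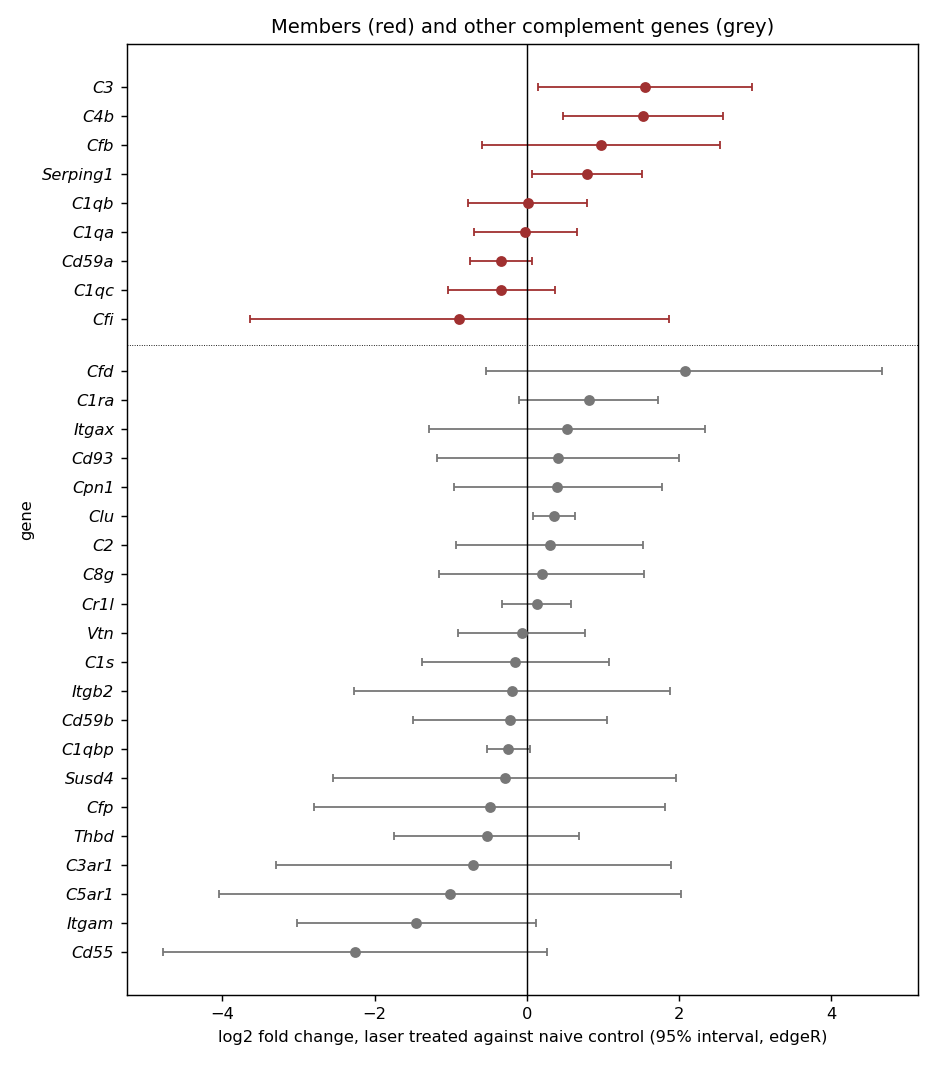
Fold change after laser over the naïve controls (x axis, log2 scale) with its 95% interval from edgeR, for the 9 members (red, above the dotted line) and further complement genes (grey). Among the members only the intervals of C3, C4b and Serping1 lie to the right of 0, and among the other genes shown only that of Clu does.

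Within the libraries labelled R1, C3, C4b and Serping1 were higher after laser by 2.81, 1.58 and 1.07 in mean log2 CPM. The groups (3 controls against 2 laser treated) did not overlap for these genes, nor for Cd59a, which was lower, at -0.66. With so few libraries complete separation carries little weight, and its share over all genes was not computed. Within R2 the differences of C3, C4b and Serping1 were 0.91, 1.23 and 0.58, and the groups overlapped (3 against 3). Fitted on the R2 libraries alone, 0 of the 9 members had an unadjusted p under 0.05 in edgeR. The share of all genes under that threshold was not computed for this smaller fit. Fold changes over all genes were also related to GC content (Spearman's rho 0.46 across genes, which are not independent replicates), and the members ran from 44.6% GC in Cd59a to 59.5% in C1qa. With that trend removed, the log2 fold change was 1.35 for C4b, 1.43 for C3 and 0.69 for Serping1 (adjusted p in edgeR = 0.722, 0.722 and 0.724), and C4b alone kept an unadjusted p under 0.05.

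**Figure D3:**
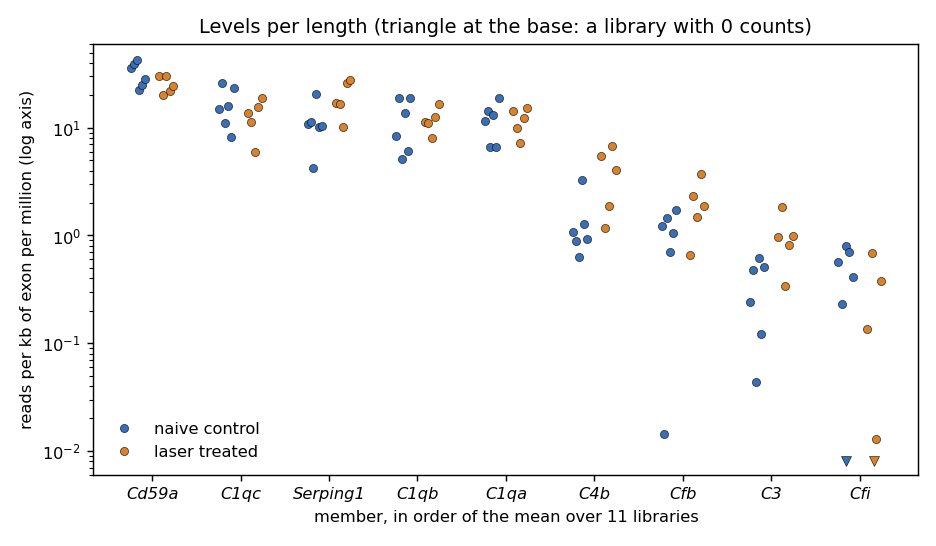
RPKM, counts scaled to library size and exon length (y axis, log scale) of the 9 members in each library, ordered by the mean over 11 libraries, with controls in blue and laser treated libraries in orange. Cd59a, Serping1 and the C1q chains form the upper range, and C4b, Cfb, C3 and Cfi lie lower with a wider spread.

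How much of each member the tissue held was compared per length, as counts scaled to library size and exon length (RPKM). Cd59a was highest at 29.1 ± 7.36 RPKM (SD, n = 11), followed by C1qc at 15.0 ± 6.1, Serping1 at 15.0 ± 7.28, C1qb at 11.9 ± 4.88 and C1qa at 11.8 ± 3.98 RPKM. C4b came next at 2.49 ± 2.1 RPKM, then Cfb at 1.48 ± 0.986, C3 at 0.632 ± 0.507 and Cfi at 0.356 ± 0.3 RPKM. The level of Cfb per length is uncertain, since 2246 of its 2825 exon bases are shared with Gm20547. C1qa exceeded C4b in all 11 libraries. Cd59a exceeded C1qc in all 11 as well, but with the longest transcript as the gene length C1qc was at 24.1 and Cd59a at 29.2 RPKM, and Cd59a exceeded it in 6 of 11, so that the order of these 2 was not firm. C1qc, Serping1, C1qb and C1qa could not be placed in a firm order, since each exceeded the next in 4, 8 and 6 of 11 libraries, and likewise C4b over Cfb in 7, Cfb over C3 in 9 and C3 over Cfi in 6. The transcript files, which hold fragments of 1 exon each, gave another order at the top, with Serping1 at 68.1 TPM and C1qb at 49.0 TPM above C1qc at 34.4 and Cd59a at 33.7 TPM.

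How the members varied with each other was examined over all 36 pairs in log2 CPM. In 6 pairs the adjusted permutation p of Pearson's r was under 0.05, r ranged from -0.75 to 0.91 with a median of 0.075, and 20 pairs were positive. Beside the C1q chains, Serping1 varied with C3 (r = 0.84, permutation p = 0.0014, adjusted 0.0126, rho = 0.84, permutation p = 0.00228, adjusted 0.0205). It varied also with C4b (r = 0.83, permutation p = 0.00097, adjusted 0.0116), although rho was 0.71 (permutation p = 0.0185, adjusted 0.133). Without the 2 farthest libraries, r was 0.66 for C3 and 0.84 for C4b, and with the group means removed 0.76 and 0.73. Cd59a went the opposite way to Serping1 (r = -0.75, permutation p = 0.00676, adjusted 0.0406, rho = -0.57, permutation p = 0.0704, adjusted 0.201), with r = -0.64 without the 2 farthest libraries. C3 and C4b themselves gave r = 0.58 (permutation p = 0.063, adjusted 0.206, rho = 0.58, permutation p = 0.0663, adjusted 0.201), which fell to 0.38 without the 2 farthest libraries.

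**Figure D4:**
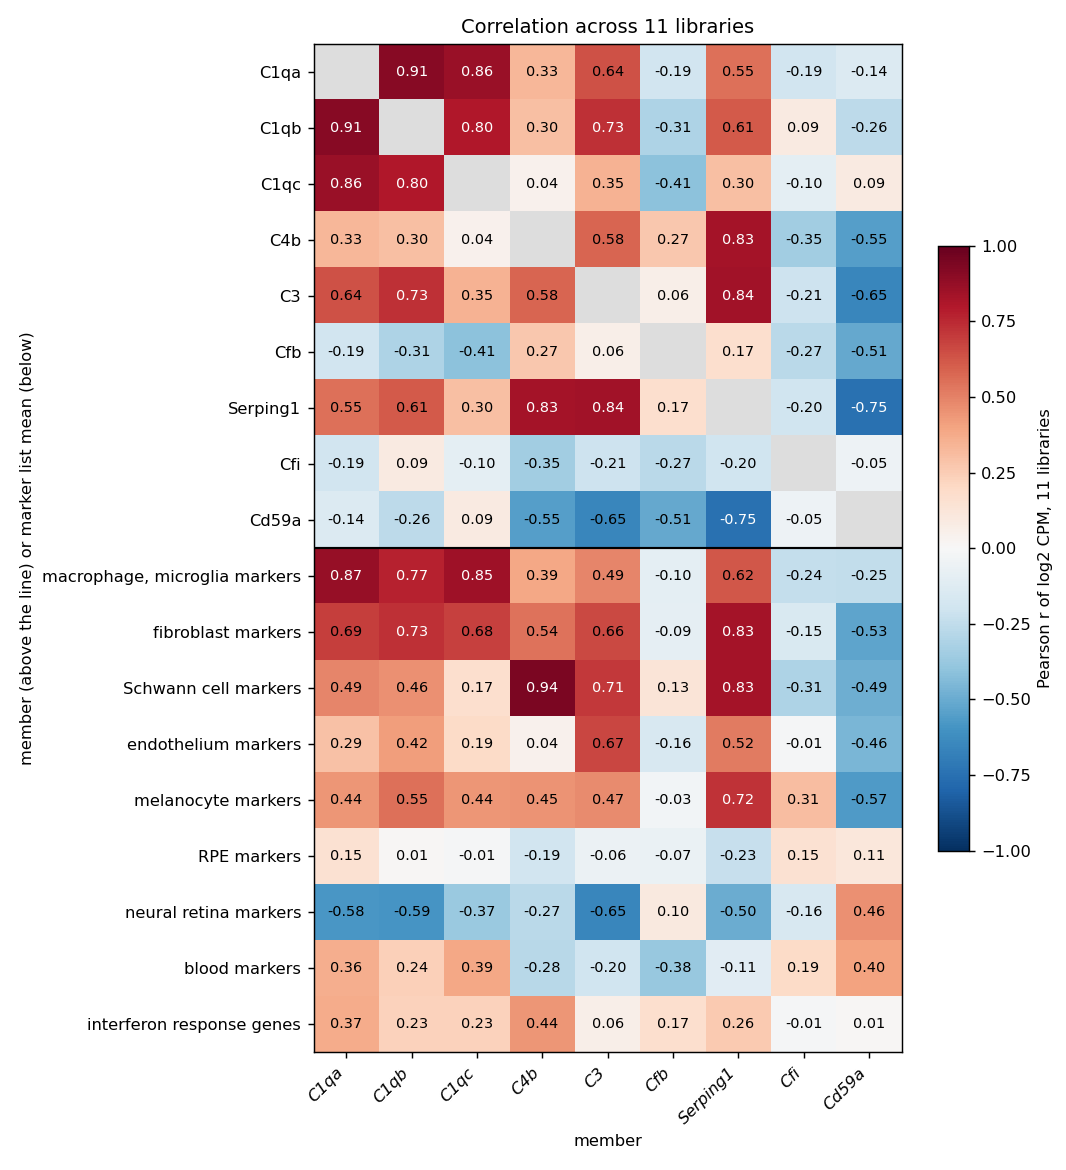
Pearson r of log2 CPM over 11 libraries (colour and number) between the members, above the line, and between each member (columns) and the mean log2 CPM of each marker list, below it. The C1q chains form 1 block with r of 0.80 to 0.91 and share high r with macrophage markers, and C4b has its highest r, 0.94, with Schwann cell markers.

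Markers of the cell types that RPE/choroid can hold were set beside the members, in lists chosen with earlier results of these data known. This gave 81 relations of 9 members with 9 lists. In 5 of them the adjusted permutation p of Pearson's r was under 0.05. Macrophage and microglia markers varied with C1qa (r = 0.87, permutation p = 0.00072, adjusted 0.0209, rho = 0.79, permutation p = 0.00508, adjusted 0.0588) and with C1qc (r = 0.85, permutation p = 0.00129, adjusted 0.0209, rho = 0.87, permutation p = 0.00082, adjusted 0.0401). For C1qb, r was 0.77 (permutation p = 0.005, adjusted 0.0675) and rho 0.82 (permutation p = 0.00325, adjusted 0.0526). Without the 2 libraries farthest from the median, r was 0.80, 0.77 and 0.69 for C1qa, C1qc and C1qb. These markers themselves, 17 genes led by Csf1r, Aif1 and Cx3cr1, did not separate the groups. Their sum was 453 to 1380 CPM in the controls and 551 to 1220 CPM after laser, 7 were higher and 10 lower, and 0 had an unadjusted p under 0.05 in edgeR (15.9% of all genes had one).

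C4b followed another list. Its r with the mean of the 4 measured Schwann cell and myelin markers, among them Pmp22, Mbp and Sox10, was 0.94 (permutation p = 4e-05, adjusted 0.00324, rho = 0.85, permutation p = 0.00174, adjusted 0.0401), and it was 0.94 without the 2 farthest libraries and 0.90 with the group means removed. Serping1 gave r = 0.83 with this list (permutation p = 0.00109, adjusted 0.0209, rho = 0.85, permutation p = 0.00198, adjusted 0.0401), or 0.91 without the 2 farthest libraries. The sum of these markers was 391 to 679 CPM in the controls and 595 to 1300 CPM in the laser treated libraries, and the median log2 fold change was 1.42. Of the 4, 3 were higher at an unadjusted p under 0.05 in edgeR, where 8.24% of all genes were higher at that threshold, and 0 of 4 passed an adjusted p of 0.05. Pmp22 was at 315 ± 53.3 CPM in the controls (SD, n = 6) and 305 ± 43.9 CPM after laser (n = 5).

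Mbp, which encodes myelin basic protein, had a mean of 59.0 ± 52.7 CPM in the 6 controls and 275 ± 231 CPM in the 5 laser treated libraries (log2 fold change 2.22, SE 0.74, adjusted p = 0.208 in edgeR). Sox10, a glial and melanocyte transcription factor, went from 132 ± 21.4 to 203 ± 43.5 CPM (log2 fold change 0.62, SE 0.16, adjusted p = 0.172 in edgeR). Pmp22 was at 315 ± 53.3 and 305 ± 43.9 CPM. The part of these cells in the C4b and Serping1 values was not tested. In libraries with Y-linked expression, the mean log2 CPM of the Schwann cell and myelin markers was 7.21 and 5.82 in naïve control libraries 4 and 5. It was 8.2, 7.43 and 7.68 in laser treated libraries 1, 4 and 5. In the remaining libraries it was 5.27 to 6.07 in the controls, and 6.34 and 6.52 in laser treated libraries 2 and 3. The part of Y-linked expression in the marker values was not tested.

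Serping1 varied in addition with fibroblast markers, a list led by Pdgfra, Dcn and Lum (r = 0.83, permutation p = 0.00113, adjusted 0.0209, rho = 0.86, permutation p = 0.00126, adjusted 0.0401), and r was 0.73 without the 2 farthest libraries. All 10 listed fibroblast genes were measured. They summed to 96.8 to 553 CPM in the controls and 135 to 479 CPM after laser, 7 were higher and 3 lower, and 0 had an unadjusted p under 0.05 in edgeR. The part of fibroblasts in the Serping1 values was not tested.

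**Figure D5:**
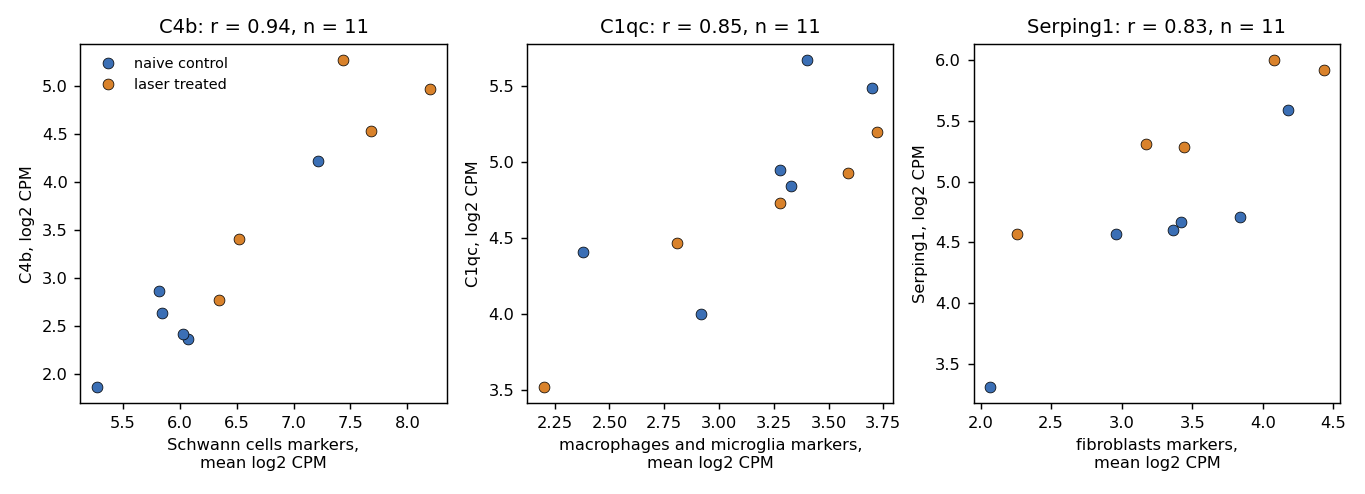
Log2 CPM of C4b, C1qc and Serping1 (y axes) against the mean log2 CPM of Schwann cell, macrophage and microglia, and fibroblast markers (x axes), 1 point per library, blue for control and orange for laser treated. In the first panel the laser treated libraries lie to the upper right of most controls, with r = 0.94, and in the second the groups are mixed along one line, with r = 0.85.

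The other lists gave no relation with a member at an adjusted permutation p under 0.05. Endothelial markers (Pecam1, Cdh5, Kdr and 7 others) summed to 129 to 349 CPM in the controls and 215 to 584 CPM after laser, and 9 of 10 were higher, none at an unadjusted p under 0.05 in edgeR. Melanocyte markers (Mlana, Dct, Tyrp1 and 3 others) summed to 1200 to 2710 and 1160 to 2740 CPM. Blood markers (Hba-a1, Hba-a2, Hbb-bs and 3 others) summed to 47.6 to 305 and 37.1 to 155 CPM, with 6 of 6 lower and 1 at an unadjusted p under 0.05. Of the RPE markers, led by Rpe65, Rlbp1 and Best1, 5 were higher and 7 lower, and of the neural retina markers, such as Gnat1 and Sag, 2 were higher and 8 lower. Interferon response genes, a programme that includes Irf1 and Irf7 and that can induce several complement genes, summed to 352 to 730 CPM in the controls and 392 to 607 CPM after laser, with 11 higher, 7 lower and 0 at an unadjusted p under 0.05.

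The genes whose log2 CPM was most like each member's over the 11 libraries were sought among 13694 genes with a mean of 1 CPM or more, as a description. For C4b they were Tmem108 (r = 0.96) and Mbp (0.95), and for Serping1 they were Shisa5 (0.95) and Tmem79 (0.92). C3 was most like Palld (0.94) and Sec61a1 (0.92), Cfb most like Ptcd1 and Ppp2r5a (both 0.95), and Cfi most like Marcksl1 and 1810010H24Rik (both 0.89). For the C1q chains they were Retnla and Crlf2 (both 0.92) with C1qa, AF251705 and Nudt13 (both 0.89) with C1qb, and Mthfd2l (0.92) and Fcgr2b (0.88) with C1qc. Cd59a was most like Ifrd1 (0.94) and Lztfl1 (0.93). The highest of 13694 correlations over 11 libraries are large by selection.

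The remainder of the pathway was read from a list of 56 names, of which 22 were among the genes tested. Of the 22, 9 had a higher and 13 a lower mean after laser, 1 in each direction had an unadjusted p under 0.05 in edgeR (9.09%, against 15.9% of all genes), none passed the adjusted threshold, and the median log2 fold change was -0.17. The gene that was higher was Clu, which encodes clusterin, a soluble regulator that binds terminal complexes. It had 8680 ± 1390 CPM in the 6 controls and 11100 ± 1300 CPM in the 5 laser treated libraries, with all 5 above the control median (log2 fold change 0.36, SE 0.13, adjusted p in edgeR = 0.220).

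In the other roles, the gene with the most counts was C2 in the classical pathway at a mean of 20.9 CPM over all libraries, which C1s and C1ra followed. Cfp, encoding properdin, which stabilises the alternative pathway enzyme, reached 2.23 CPM, and C8g, the one terminal component measured, 2.81 CPM. Among membrane regulators Cr1l, the rodent Crry protein, was highest at 26.9 CPM (log2 fold change 0.13, adjusted p in edgeR = 0.844). Among receptors C1qbp, a mitochondrial protein that can bind C1q, was highest at 65.7 CPM (-0.25, adjusted p in edgeR = 0.390). None of these passed the unadjusted threshold, and 0 of the 8 lectin pathway names were among the genes tested.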

How the data were processed

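Read counts per gene, not normalised, were deposited by the authors in 1 table. The submitters' processing notes name Trim Galore, STAR 2.5.3a, featureCounts 1.5.3, StringTie 1.3.3, edgeR 3.22.3 and the build GRCm38. RNA was preamplified with a SmartSeq v4 kit before library preparation. The table's own fold changes and p-values were not used. The authors also deposited assembled transcripts per library, from which TPM were summed over fragments with at least 50% of their bases in a gene's exons (GENCODE M21).

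Counts were tested with edgeR 4.0.16 (R 4.3.3; TMM, quasi-likelihood, robust) over 14602 genes, group alone in the model, with Benjamini-Hochberg adjustment. filterByExpr removed 0 genes. Correlations used log2 CPM (prior count 2) and 100000 permutations, two-sided. Alternatives were DESeq2 1.42.0, limma 3.58.1, other normalisations, filters and TPM, replicate number as a block, GC or length trends removed and each library left out. After seeing the data, fits by label, by Y-linked expression and without 2 libraries were added. The members and lists were chosen with earlier results of these data known. Named genes are the members, pathway genes with an unadjusted p under 0.05 or the highest mean CPM in their role, the 2 genes most like each member and the first 3 genes of each marker list, some of which are not reported here. The code was checked on simulated data. Promoters, available here for 4 of 9 members, came from RefSeq (GRCm38.p6).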

Additional observations from a re-analysis of the deposited data

Results flagged for a closer look

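In 38 groups of values (members, marker sums and total counts, each by group), 4 held a library that stood apart from its group by Dixon's criterion, and chance alone sets 1 in about 20 groups apart. C4b was 18.6 CPM in naïve control library 4, where the other 5 controls held 3.59 to 7.24 CPM. The same library had 2710 CPM of melanocyte markers, where the other controls had 1200 to 1670 CPM. Laser treated library 5 had 2740 CPM of melanocyte markers, against 1160 to 1590 CPM in the rest of its group, and 155 CPM of blood markers, against 37.1 to 68.9 CPM. Both libraries were among those with Y-linked expression.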

How the results depend on the processing

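No member passed an adjusted p of 0.05 under any alternative, although DESeq2 gives an adjusted p for C1qc, Serping1 and Cd59a alone and none for the other 6 members. C4b kept an unadjusted p under 0.05 in all 27 alternatives that used libraries of both labels and of both kinds of Y-linked expression (log2 fold change 0.99 to 2.00), but not in the R2 libraries alone. Over the same alternatives, C3 kept it in 17 of 24 (1.21 to 2.05) and Serping1 in 17 of 27 (0.50 to 1.05). Genes with an adjusted p under 0.05, 0 in edgeR, numbered 502 with DESeq2, 2 with at least 10 counts in every sample, 1 with voom, 2 on log2(TPM + 1), 2 on log2(TPM + 0.1), 0 to 4 with single libraries left out, and 389 without naïve control library 6 and laser treated library 5, left out because they stood apart in other gene groups in earlier results. The members with an unadjusted p under 0.05, 3 in edgeR, were 1 with the GC trend removed, 1 with Y-linked expression as a covariate, 1 in libraries with Y-linked expression alone, 0 in the libraries labelled R2 alone and 1 to 4 with single libraries left out, the 1 being without naïve control library 1 or 5 or laser treated library 5. The pathway genes with an unadjusted p under 0.05, 2 in edgeR, were 4 with DESeq2. They were 1 with the GC trend removed, with that and the replicate block, on log2(TPM + 1) and in libraries with Y-linked expression alone. DESeq2 gave an unadjusted p under 0.05 for 17.1% of all genes. For the other alternatives this share was not computed, so their counts of members and pathway genes stand without it. The members' median log2 fold change was 0.49 in libraries with Y-linked expression alone and -0.15 to 0.20 with single libraries left out. Near 0, C1qa turned positive with voom (0.14), the replicate block (0.19), the length trend removed (0.18), on TPM (0.12 and 0.13), in the R1 libraries (0.18), without the 2 libraries (0.06) and in libraries with Y-linked expression (0.49), and ran from -0.15 to 0.15 with single libraries left out. C1qb turned negative with the GC trend removed (-0.23), the label as a covariate (-0.01) and in the R2 libraries (-0.03), and ran from -0.16 to 0.20 with single libraries left out. Cd59a was at 0.04 in the R2 libraries and 0.12 in libraries with Y-linked expression, where C1qc was at 0.41. The cause of these changes was not tested.

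Control and laser treated libraries came from different mice, so a shared replicate number cannot pair 2 eyes of 1 animal. Whether the numbers pair the samples in another way was not given in the labels and could not be settled here. Number 3 was labelled R1 in the control group and R2 in the laser treated group. Deviations of same-numbered samples correlated at -0.009 to 0.28, and 4 of 10 samples correlated best with their own number. With the replicate block, 3 members still had an unadjusted p under 0.05, and C3, C4b and Serping1 were at 2.05, 1.41 and 0.85. C3, Cfb and Cfi each had fewer than 10 counts in at least 1 library and could not be fitted with at least 10 counts in every sample.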
